A study of Rattus norvegicus with 16 samples.

Results

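The proximal femur of the Lewis rat, an inbred strain, was set against that of 3 other inbred strains to find the messenger RNAs whose level is private to Lewis. The groups were Lewis, Fischer 344, Copenhagen 2331 and Dark Agouti, all 4 weeks old and with no treatment named, and each gave 4 of the 16 Affymetrix arrays. A probe set, the group of short probes that reads 1 transcript, was called private when all 4 Lewis signals lay above, or all 4 lay below, each of the 12 other signals. By this rule 513 of 18625 probe sets bright enough to be kept were private to Lewis, and so were 274 of 10548 genes, each gene being read by its brightest kept probe set. The study was built around a trait locus on chromosome 4 that had been found in F2 rats bred from Fischer 344 and Lewis. The labels give neither the sex of the rats nor whether the arrays of a strain came from separate animals, so p-values measure only the spread between these samples, which may be technical.

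At this age the proximal femur holds growing bone, growth plate cartilage and blood-forming marrow, and its RNA comes from osteoblasts, chondrocytes and marrow cells of every lineage. Lewis rats are known for a weak stress hormone response and for their susceptibility to experimental autoimmune disease. Insulin-like growth factor 1 is made in bone and cartilage as well as in liver, and the growth hormone signal that drives it is damped by Socs2. Type I interferons act through the receptor chains Ifnar1 and Ifnar2, and many of the genes they induce carry a short element, the ISRE, in their promoters.

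Markers of the tissue were bright in Lewis as elsewhere. Col1a1, the main bone collagen, had signals of 59420 to 66080 in Lewis and 56190 to 75010 in the other strains, and Col2a1, the cartilage collagen, 49520 to 58250 and 47470 to 61920. Muscle was in the sample too, with Acta1 at 52860 to 57030 in Lewis and 51690 to 72850 elsewhere. The skin keratins Krt5 and Krt14 and the liver genes Alb and Ttr fell below the filter on dim probe sets, with Krt5 at 41.7 to 130 in Lewis and 14.8 to 147 in the others. The ratio of 3' to 5' signal of Gapdh, a sign of RNA quality, was 0.982 to 1.03 in Lewis and 0.970 to 1.06 in the others. It was higher for beta-actin, at 1.84 to 2.19 in Lewis and 1.87 to 2.32 in the others. For hexokinase it was 2.655 to 3.69 and 2.30 to 4.12. The spread within a strain, as the median over probe sets of the SD of 4 log2 signals, was 0.154 in Lewis and 0.121 to 0.150 in the others, and Lewis replicate 4 stood apart in several cell type lists given further on.

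Of the 18625 probe sets, 231 (1.24%) were private to Lewis above and 282 (1.51%) below, 2.75% in all. The difference reached 2-fold in 51 of those above and 63 of those below, and its median size was 0.56 on the log2 scale. Most of the private probe sets were separated from the others by a narrow margin. The gap between the nearest Lewis array and the nearest other array had a median of 0.130 log2, and it was at least 0.25 in 71 probe sets above and 84 below and at least 1 in 12 above and 23 below. Lewis replicate 4 decided many of the limits: without it 404 probe sets lay above and 413 below, and 468 genes were private. The same rule gave 393 above (2.11%) and 515 below (2.77%) for Fischer 344, 457 (2.45%) and 301 (1.62%) for Copenhagen 2331, and 207 (1.11%) and 223 (1.2%) for Dark Agouti.

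In the limma fit across all kept probe sets, 1052 (5.65%) were higher and 1102 (5.92%) lower in Lewis than the mean of the 3 other strain means, at a Benjamini-Hochberg adjusted p under 0.05. Against each of the 3 strains at once, 193 (1.04%) were higher and 241 (1.29%) lower, and 374 of these 434 (2.33%) were also private. Of the 513 private probe sets 499 passed the fit, 225 above (1.21% of those kept) and 274 below (1.47%), a count that the choice of members largely fixes, and their differences are given below as descriptions with an SE and no p. Among genes, 114 (1.08%) were private above and 160 (1.52%) below, while 573 (5.43%) were called higher and 640 (6.07%) lower.

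The genes with the widest gap above the other strains were of varied function. Ythdf2, a reader of methylated adenosine that sends messenger RNAs to decay, had Lewis signals of 6449, 6488, 6482 and 7506, against 646 to 1090 (median 787) on the 12 other arrays. The difference was 3.02 on the log2 scale (SE 0.093), 8.13-fold, and the nearest arrays of the groups were far apart. RT1-CE5, which encodes a class I molecule of the major histocompatibility complex, had 1529, 1534, 1723 and 1722 in Lewis and 230 to 417 (median 292) in the others, a difference of 2.44 (SE 0.13). Slc14a1, a urea transporter of red cells and kidney, stood at 1556, 1297, 1764 and 1461 in Lewis and 464 to 655 (median 582) elsewhere, a difference of 1.38 (SE 0.081).

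Lig4, the DNA ligase of end joining that also seals antigen receptor genes, had 3288, 3233, 3405 and 3009 in Lewis against 1028 to 1645 (median 1404), a difference of 1.30. Vpreb3, a protein bound to the pre-B-cell receptor, had 4925, 4971, 5166 and 4824 against 741 to 3526 (median 1422), a difference of 1.59. Lewis was above every other array for both genes, but the other strains were far from alike in Vpreb3. Gal, the neuropeptide galanin, had 963, 1314, 1362 and 1724 in Lewis against 312 to 659 (median 461), a difference of 1.51 (SE 0.16). Arg1, the arginase of the urea cycle and of some macrophages, had 379, 629, 499 and 782 against 158 to 272 (median 231), a difference of 1.27 (SE 0.15). The Lewis arrays themselves were spread for Gal and Arg1, and the lowest of them still lay above all 12 others.

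Among matrix and cytoskeletal genes, Dpt, the matrix protein dermatopontin, had 9104, 9130, 7040 and 8160 in Lewis against 4015 to 4744 (median 4455), a difference of 0.91. Cnn2, an actin-binding calponin, had 11290, 9979, 11020 and 11030 against 4310 to 6558 (median 5085), a difference of 1.06. Rnd3, a small GTPase that loosens actin fibres, had 1439, 1408, 1411 and 1839 against 559 to 1011 (median 769), a difference of 1.02. Acadsb, a dehydrogenase of branched-chain amino acid breakdown, and Creg1, a secreted glycoprotein, were 1.17 and 0.96 higher, in both cases with all Lewis arrays above the rest.

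Below the other strains, the widest separations included those of 2 class I genes, of the leukocyte gene Itgal and of Ccn1, which is described further on. RT1-T24-4, a class I gene, had Lewis signals of 182, 220, 337 and 336, against 2281 to 3587 (median 2776) on the other arrays, a difference of -3.45 (SE 0.13). RT1-CE16, another class I gene, had 184, 174, 97.0 and 164 against 767 to 1221 (median 1007), a difference of -2.69 (SE 0.13). Itgal, the alpha chain of the leukocyte integrin LFA-1, had 89.0, 128, 78.0 and 118 in Lewis against 744 to 1505 (median 903), a difference of -3.28 (SE 0.12). All Lewis signals of Itgal were under 174, the level used as the filter on dim probe sets, and those of RT1-CE16 were near or under it. The 12 other arrays were well above this level in all 3 genes. Class I genes have near-identical copies that probe sets may share, so their identity is uncertain here.

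Ccn1, a matricellular protein that acts on integrins in vessels and bone, had 125, 116, 181 and 69.4 in Lewis against 941 to 1757 (median 1292), a difference of -3.50 (SE 0.18) and the largest in size of all private genes. Siglec5, which in humans is a sialic acid receptor of myeloid cells, had 141, 135, 102 and 168 against 618 to 960 (median 835), a difference of -2.58 (SE 0.12). All Lewis signals of Siglec5, and those of Ccn1 apart from 181, were under the filter level of 174, which limits what the size of these differences means. Iglc1, a constant segment of the immunoglobulin lambda light chain, had 519, 506, 558 and 571 against 1411 to 4669 (median 3167), a difference of -2.34. The other strains were split for Iglc1, whereas they were close together for Ccn1 and Siglec5. E2f2, a transcription factor of the cell cycle, was bright everywhere, with 4454, 4032, 4407 and 3413 in Lewis against 11980 to 17960 (median 15270), a difference of -1.88 (SE 0.057).

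Mfap3, a microfibril-associated protein, had a difference of -1.86 on the log2 scale, with a highest Lewis signal of 399 and a lowest other signal of 1046. Tiprl, a regulator of TOR signalling, Pou2f1, the transcription factor Oct-1, Impa2, an inositol monophosphatase, and Cryzl2 had differences of -1.51, -1.26, -1.41 and -1.21. Plekhb1, a membrane protein with a pleckstrin homology domain, had 686, 675, 639 and 543 in Lewis against 1330 to 4247 (median 1802), a difference of -1.77. Of the 282 private probe sets below, 30 had a Lewis mean signal under 174, where signals carry little information. Of those above, 1 had all 3 other strain means under that level.

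**Figure D1:**
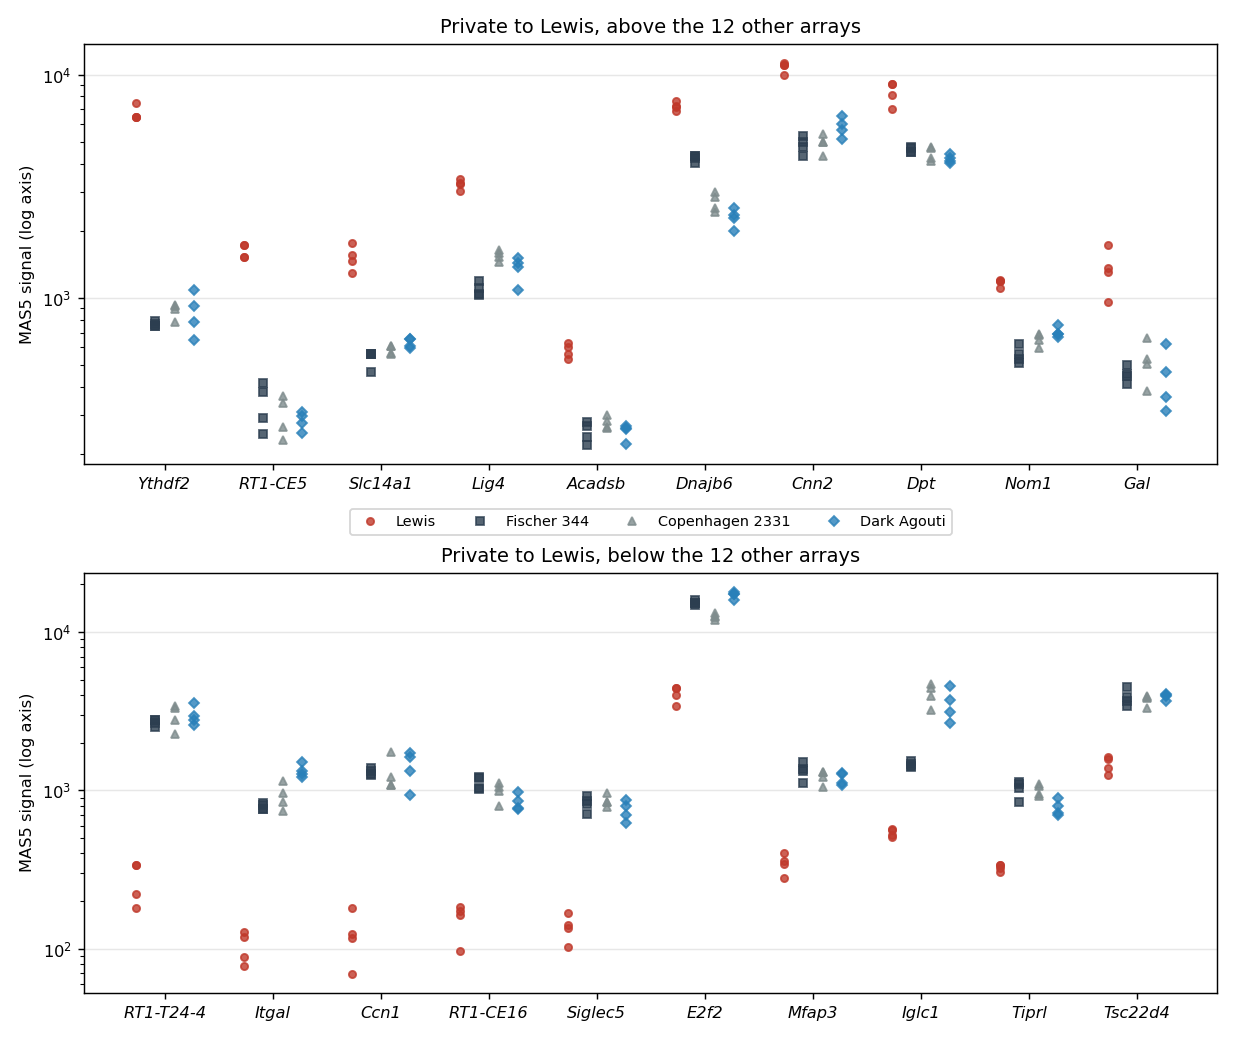
MAS5 signal (log axis) of the 10 genes above and the 10 genes below with the widest gap, 1 point per array, Lewis left of Fischer 344, Copenhagen 2331 and Dark Agouti. Ythdf2 has Lewis signals of 6449 to 7506 against 646 to 1090, and in Dnajb6 and Iglc1 Fischer 344 stands between Lewis and the other strains.

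The other strains differed from each other about as often in the private genes as in all genes. The rule did not use the contrasts among Fischer 344, Copenhagen 2331 and Dark Agouti, but it used the highest and lowest of their signals. Spread among these strains thus limits which genes can be private. The comparison with all genes is a description and not an independent check. Of the 274 private genes 90 (32.8%) had a limma call in at least 1 of these contrasts, against 3388 of 10548 genes tested (32.1%). The means of the other strains spanned a median of 0.20 log2 in the private genes and 0.22 in all genes. For 19 private genes the other strains spanned more than the Lewis difference itself. Ythdf2 and Ccn1 were flat among the others, with spans of 0.21 and 0.12. Vpreb3, in contrast, spanned 1.86 among the other strains, with Fischer 344 minus Copenhagen 2331 at -1.86. Its Lewis differences were 2.41 from Fischer 344, 0.54 from Copenhagen 2331 and 1.83 from Dark Agouti. Plekhb1 spanned 1.61, with Lewis differences of -2.71 from Fischer 344, -1.10 from Copenhagen 2331 and -1.49 from Dark Agouti. Iglc1 spanned 1.46 and Dnajb6 0.88, both with Fischer 344 nearest to Lewis. Myo5c, an unconventional myosin picked after its values were seen, showed how a large difference can go with a narrow gap. It had 11540, 10540, 11800 and 9528 in Lewis against 51.2 to 8316 (median 5443), with Dark Agouti at 51.2 to 78.1 and Copenhagen 2331 at 6351 to 8316. Mdm4, an inhibitor of p53 also picked after its values were seen, had 1159, 1122, 1098 and 1111 in Lewis against 1798 to 3688 (median 3068), with Copenhagen 2331 between Lewis and the other strains. Its other probe set gave a smaller difference, -0.30, against -1.30.

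Other probe sets of the same genes, which played no part in choosing them, gave a mixed picture. The 77 private genes with more than 1 kept probe set had 96 others, of which 67 (69.8%) had the same sign, 33 (34.4%) were called in the same direction by limma, 9 were called in the opposite direction and 17 (17.7%) were private the same way. For 49 of the 77 genes no other probe set was called the same way. Ythdf2 had a second probe set that was also private, with a smaller difference of 0.66 (SE 0.089). Dpt, Lig4 and Abcb10 likewise had a second private probe set, at 1.03, 0.71 and 0.81, and Rnd3 had 1 at 1.0 and another at 0.30 that did not pass (limma adjusted p = 0.116). Slc14a1 and Creg1 had second probe sets that passed at 0.74 and 0.73 without being private. That of Tsc22d4, a leucine zipper protein, gave 0.15 against -1.40 for the brightest (limma adjusted p = 0.245), and that of Osbpl3, an oxysterol-binding protein, gave -0.02 against 0.90 (limma adjusted p = 0.959).

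Some private probe sets were not the brightest of their gene. There were 89 such probe sets, and for 72 of them, in 68 genes, the brightest was not private the same way: limma called it in the same direction for 11, in the opposite direction for 9 and in neither for 52. Zfp212, a zinc finger protein on chromosome 4, was the furthest apart, and it was picked with its values seen. One probe set had 101, 67.0, 97.4 and 29.3 in Lewis against 1833 to 2454 (median 2014), a difference of -4.94, and the brightest gave 0.54 in the other direction. Wtap, a subunit of the complex that methylates adenosine in messenger RNA, also picked after its values were seen, had 7322, 6957, 6813 and 7171 against 578 to 1264 (median 893) in one probe set, a difference of 3.01. Its brightest probe set gave -0.06 (limma adjusted p = 0.621). The probe sequences were not used here, so whether such a disagreement lies in the transcripts or in the probes was not tested.

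**Figure D2:**
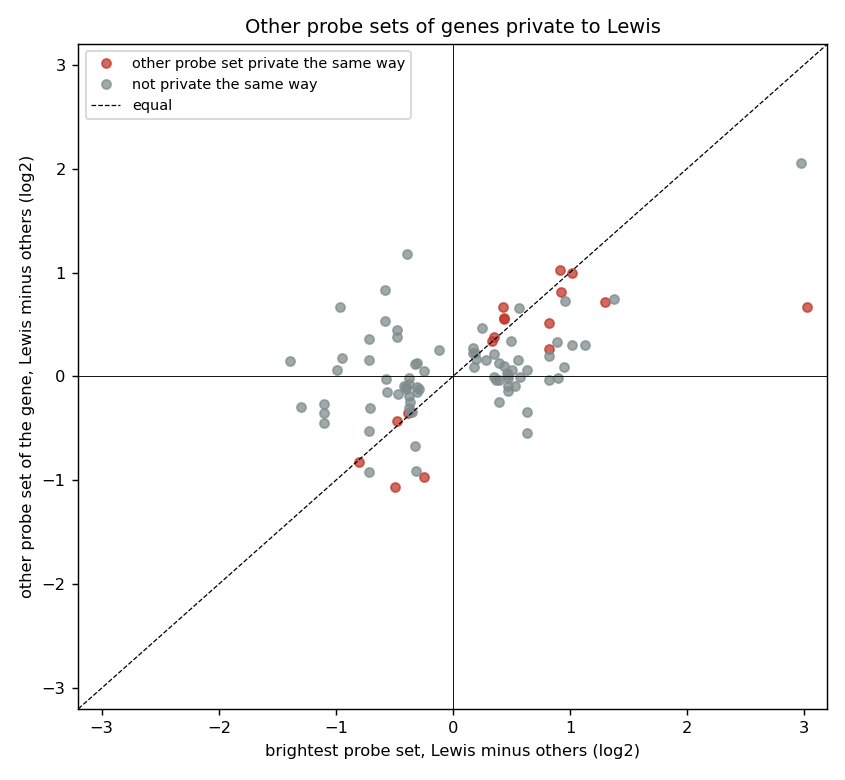
Difference between Lewis and the other strains (log2) in the brightest probe set of a private gene (x axis) and in each of its other kept probe sets (y axis), 96 points from 77 genes, with the dashed line where both are equal. Points private the same way (17) are red, and 9 of the 96 were called in the direction opposite to that of the brightest probe set.

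In the growth factor axis the private genes were Igf1, Socs2 and Igf2bp3. Igf1, insulin-like growth factor 1, had signals of 11690, 13310, 14390 and 14690 in Lewis against 6004 to 8634 (median 7864) in the others, a difference of 0.83 (SE 0.066), or 1.77-fold. Its other probe sets were both private above too, with differences of 0.51 (SE 0.087) and 0.26 (SE 0.051). The 3 other strains spanned 0.18 in Igf1. Socs2, the inhibitor of growth hormone receptor signalling, was private below, with 138, 54.0, 111 and 105 in Lewis against 156 to 511 (median 227), a difference of -1.43 (SE 0.20), its Lewis signals all being under the filter level. The other strains were far from alike in Socs2, with a span of 1.32. Igf2bp3, an RNA-binding protein that takes its name from Igf2 messenger RNA, was private above at 0.71 (SE 0.12), with Lewis signals of 456 to 743 against 304 to 443.

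Of the 16 kept members of the insulin-like growth factor list, 2 were private above and 1 below, and 2 were called higher and 2 lower. Over all genes 1.08% were private above and 1.52% below, and 5.43% were called higher and 6.07% lower. Igfbp6, a binding protein that prefers Igf2, was the other one called lower, at -0.23 (SE 0.058, limma adjusted p = 0.00926), a call lost without Lewis replicate 3 (-0.17, adjusted p = 0.0761). The receptors Igf1r and Ghr had differences of -0.17 and -0.13 and did not pass, and the main carrier Igfbp3 had -0.01. The list median was -0.01, like that of all genes.

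The interferon response genes were lower in Lewis in the largest number of any list. Of 24 kept members 15 were called lower and 0 higher, against 6.07% and 5.43% of all genes tested, 4 were private below, and 23 of the 24 differences were under 0, with a median of -0.37 against -0.01 for all genes. Isg15, a ubiquitin-like modifier, had 487, 272, 409 and 404 in Lewis against 613 to 1543 (median 802), a difference of -1.16 (SE 0.17). Irf7, the transcription factor that amplifies type I interferon, had 1041, 635, 811 and 913 against 1495 to 2954 (median 1623), a difference of -1.10 (SE 0.14). Usp18, the protease that removes Isg15 from proteins, had 203, 251, 208 and 262 against 281 to 796 (median 439), a difference of -0.96, and Ifi27, a small mitochondrial protein, had 9500, 9335, 9122 and 10530 against 13170 to 18790 (median 16250), a difference of -0.75.

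These 4 were the private ones, and all were lower in Lewis than in each strain. Mx2, an antiviral GTPase, had the largest difference of the list, -1.90 (SE 0.23, limma adjusted p = 5.43e-06), yet was not private: Lewis had 81.1, 46.9, 73.0 and 75.7 and the others 36.9 to 1695, with Lewis differences of 0.10 from Fischer 344 and -4.09 from Copenhagen 2331. Ifit1, Ifit3, Mx1 and Ifi44, all induced antiviral proteins, passed with differences of -0.84, -0.79, -0.78 and -0.73. Stat2, Oas1a, Ifih1 and Herc6 did not pass, with -0.09, -0.05, -0.16 and -0.15, and Irgm alone was above 0, at 0.17. The mean of the list, centred on the 16 arrays, was -0.51 to -0.29 on the Lewis arrays and -0.04 to 0.60 on the others. Copenhagen 2331 replicates 2 and 4 stood highest, at 0.54 and 0.60, and without both of them 15 members were still called lower and 4 were private. Leaving out single Lewis arrays gave 12 to 15 called lower, and 7 private without Lewis replicate 4.

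The promoters of Irf7 and Ifi27 are shown as private members that hold the element. The letters searched were those of the core of the ISRE, GAAA, then any 2 bases, then GAAA again, on both strands, in the 300 bases from 250 before to 50 after each RefSeq start of the assembly GRCr8. Irf7 (chr1:205799974-205800273, minus strand) holds 1 match and Ifi27 (chr6:128355062-128355361, plus strand) holds 2. The sequences run 5′ to 3′ along the gene, with the matches in capitals, that of Irf7 being on the opposite strand:
Irf7: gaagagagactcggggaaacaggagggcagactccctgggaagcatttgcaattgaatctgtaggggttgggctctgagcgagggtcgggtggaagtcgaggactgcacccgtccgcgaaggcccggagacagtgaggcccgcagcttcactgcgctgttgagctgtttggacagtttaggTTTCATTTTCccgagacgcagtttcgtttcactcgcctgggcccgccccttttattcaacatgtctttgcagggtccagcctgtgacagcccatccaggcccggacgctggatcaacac
Ifi27: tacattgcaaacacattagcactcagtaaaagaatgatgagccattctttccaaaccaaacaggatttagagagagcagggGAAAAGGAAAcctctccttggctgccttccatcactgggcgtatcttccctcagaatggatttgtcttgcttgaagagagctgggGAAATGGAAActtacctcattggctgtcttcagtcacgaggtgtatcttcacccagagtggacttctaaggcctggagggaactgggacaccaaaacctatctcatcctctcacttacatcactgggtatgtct

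This core was in 1034 of 27457 promoters of that length (3.77%). Of the 24 kept list members 18 had a promoter in the table, and 12 of these held the core, 8 of the 10 called lower in Lewis and 4 of the 8 not called. A match is a description of the letters and not a site shown to be used.

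**Figure D3:**
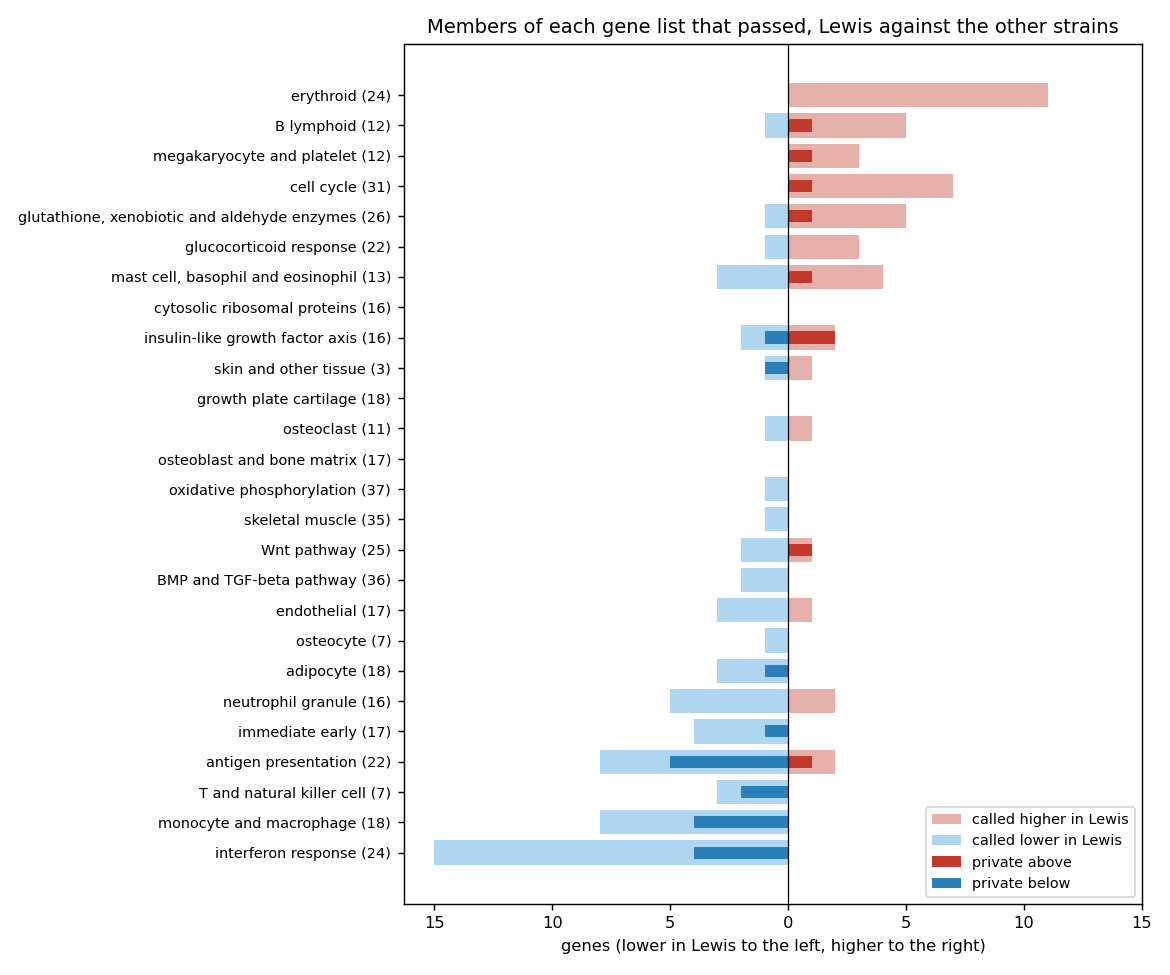
Members of each gene list called higher (right) or lower (left) in Lewis by limma, and those private to Lewis, as numbers of genes, with the number kept in brackets and lists ordered by the share called higher less the share called lower, highest at the top. Interferon response has 15 of 24 called lower and erythroid 11 of 24 called higher, and no member of the osteoblast or cartilage lists was called.

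Antigen presentation genes moved in both directions within the histocompatibility complex. Of 22 kept members 8 were called lower and 2 higher, and 5 were private below and 1 above. Among all genes tested 6.07% were called lower and 5.43% higher, and 1.52% were private below and 1.08% above. Besides RT1-CE5, RT1-T24-4 and RT1-CE16, the private members were the immunoproteasome subunits Psmb9 and Psmb8 and the peptide trimmer Erap1, at -0.63, -0.39 and -0.38. Psmb9 had 1831, 1652, 1705 and 1652 in Lewis against 2098 to 3188 (median 2711). RT1-A, a classical class I gene, was lower by the fit at -1.26 (SE 0.15, limma adjusted p = 3.87e-06) with overlapping arrays, 117 to 232 in Lewis and 206 to 1365 elsewhere, most of the difference lying against Fischer 344 (-2.61). Class II genes held no private member. RT1-DMb, a chain of the molecule that loads peptides, was called higher at 0.43 (limma adjusted p = 0.022), and Cd74, the invariant chain, lower at -0.37 (limma adjusted p = 3.4e-05). RT1-Da, RT1-Ba, RT1-Bb and RT1-Db1 had -0.13, 0.08, 0.03 and -0.17 and did not pass.

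Some of the listed markers of macrophages and of T and natural killer cells were lower in Lewis. In bulk tissue fewer cells of a type and less RNA per cell cannot be told apart. Of 18 monocyte and macrophage genes 8 were called lower, 0 higher and 4 private below, with a median of -0.21. The shares over all genes were 6.07% called lower, 5.43% called higher and 1.52% private below. Mertk, a receptor for dying cells, had 243, 345, 259 and 360 in Lewis against 393 to 508 (median 421), C1qb, a complement chain, had 2206, 2271, 2499 and 2614 against 2986 to 3537 (median 3237), and Ctss, a lysosomal protease, had 3159, 3181, 3417 and 3599 against 3720 to 4077 (median 3903). The differences were -0.54, -0.44 and -0.22, and Mpeg1, a pore-forming protein, was the fourth private gene at -0.37. Tyrobp, Csf1r, C1qa and C1qc were the others called lower, at -0.30, -0.23, -0.21 and -0.21, and the call of Tyrobp ended under 15 alternatives. Of the defining markers that did not pass, Aif1, Cd14, Fcgr1a and Cd163 had -0.21, -0.21, -0.23 and -0.15, and Cd68 and Adgre1 had 0.16 and 0.02. Outside the list, Arg1 (1.27), Itgax (0.82), Cd5l (0.58) and Folr2 (0.32), which macrophages can express, were private above. Siglec5 (-2.58), Mnda (-0.82) and Ms4a6a (-0.56), of myeloid cells, were private below. Itgax, Cd5l, Folr2, Mnda and Ms4a6a were picked after their values were seen. The list mean overlapped, at -0.18 to -0.05 in Lewis and -0.10 to 0.19 elsewhere, and 5 to 9 members were called lower without single Lewis arrays, 5 of them without Lewis replicate 3.

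Only 7 of 17 T and natural killer cell genes with a probe set were bright enough to keep, with defining markers such as Cd3g at -0.35 and Cd4 at -0.26 not passing. Il2rb, the beta chain of the interleukin 2 receptor, was private below, with 138, 71.3, 158 and 145 in Lewis against 167 to 313 (median 273). All Lewis signals of Il2rb, and the lowest other signal, were under the filter level of 174, which limits what its difference means. Gimap4, a GTPase of lymphocytes on chromosome 4, was private below too, with 471, 380, 395 and 475 against 550 to 829 (median 716). Nkg7, a granule protein of killer cells, was lower at -0.38 (SE 0.072, limma adjusted p = 0.00105) with overlapping arrays. The list mean was -0.35 to -0.25 in Lewis, and Dark Agouti replicate 1, at -0.34, overlapped it. Among the 17 immediate early genes 4 were called lower and 0 higher, which were Ccn1, Fos (-0.56), Ier3 (-0.55) and Egr1 (-0.33). Fos lost its call under 5 alternatives, among them without Lewis replicate 3 (-0.38, limma adjusted p = 0.16). Over all genes 6.07% were called lower, 5.43% were called higher and 1.52% were private below.

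In the erythroid and cell cycle lists all calls were in the higher direction, though most members did not pass. Of 24 erythroid genes 11 were called higher and 0 lower, with 22 differences above 0 and a median of 0.18, and 0 were private. The shares called over all genes were 5.43% higher and 6.07% lower. Bpgm, the red cell enzyme that makes 2,3-bisphosphoglycerate, rose by 0.31 (SE 0.048, limma adjusted p = 0.00011), with Lewis signals of 15550 to 17990 and 12000 to 16480 elsewhere. Hba-a3, an alpha globin with near-identical copies, was at 29870 to 32720 in Lewis and 5011 to 42740 in the others, with a Lewis difference of -0.32 from Dark Agouti. The list mean was 0.30, 0.11, 0.19 and 0.00 on Lewis replicates 1 to 4, and Dark Agouti, at 0.13 to 0.23, overlapped it. The count called higher was 18 without Lewis replicate 4, 5 without replicate 1 and 5 without replicate 3.

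Of 31 cell cycle genes 7 were called higher and 0 lower, against 5.43% and 6.07% of all genes, with 29 differences above 0. Tyms, thymidylate synthase, was the private one, with 2378, 2278, 2591 and 2201 in Lewis against 1253 to 1698 (median 1390), a difference of 0.74 (SE 0.065). Aurkb, a mitotic kinase, and Cenpf, a kinetochore protein, passed at 0.52 (limma adjusted p = 1.17e-05) and 0.36 (limma adjusted p = 0.00376) with overlapping arrays. The count was 15 without Lewis replicate 4 and 4 without replicate 1 or replicate 3. The list mean was -0.065 to 0.221 in Lewis, and Dark Agouti, at 0.003 to 0.157, lay inside that range. E2f2, named above, was not a member of this list and went the other way.

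Among the remaining marrow lists, 5 of 12 B lymphoid genes were called higher and 1 lower, against 5.43% and 6.07% of all genes. Besides Vpreb3 these were Fcrla, Ebf1, Pou2af1 and Cd79b at 0.39, 0.30, 0.27 and 0.26, and the count was 3 without Lewis replicate 2 or replicate 4 and 3 under quantile normalization. Blk, a kinase of B cells, was lower at -0.54 (SE 0.13, limma adjusted p = 0.00734), and the 2 other probe sets of Ebf1 gave -0.02 and -0.07. The B lymphoid list mean was 0.119 to 0.24 in Lewis. Copenhagen 2331, at 0.142 to 0.356, overlapped it, and Fischer 344 was lowest, at -0.468 to -0.355. Tubb1, the beta tubulin of platelets, was private above with 6171, 5487, 7098 and 5645 against 2375 to 4013 (median 3173), while of 12 megakaryocyte genes 3 were called higher and the list median was -0.03. Tpsab1, a tryptase of mast cells, was private above with 805, 576, 548 and 506 against 176 to 435 (median 306). The eosinophil granule genes Epx and Prg2 were lower in Lewis, at -0.87 and -0.72 (limma adjusted p = 2.97e-06 and 5e-07), and their Lewis differences from Fischer 344 were only -0.18 and -0.10. Lcn2, a siderophore-binding protein of neutrophils, had a difference of 2.36 and was not private, since its Lewis difference from Copenhagen 2331 was -0.45. The neutrophil list had 2 called higher and 5 lower of 16, with 0 private.

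**Figure D4:**
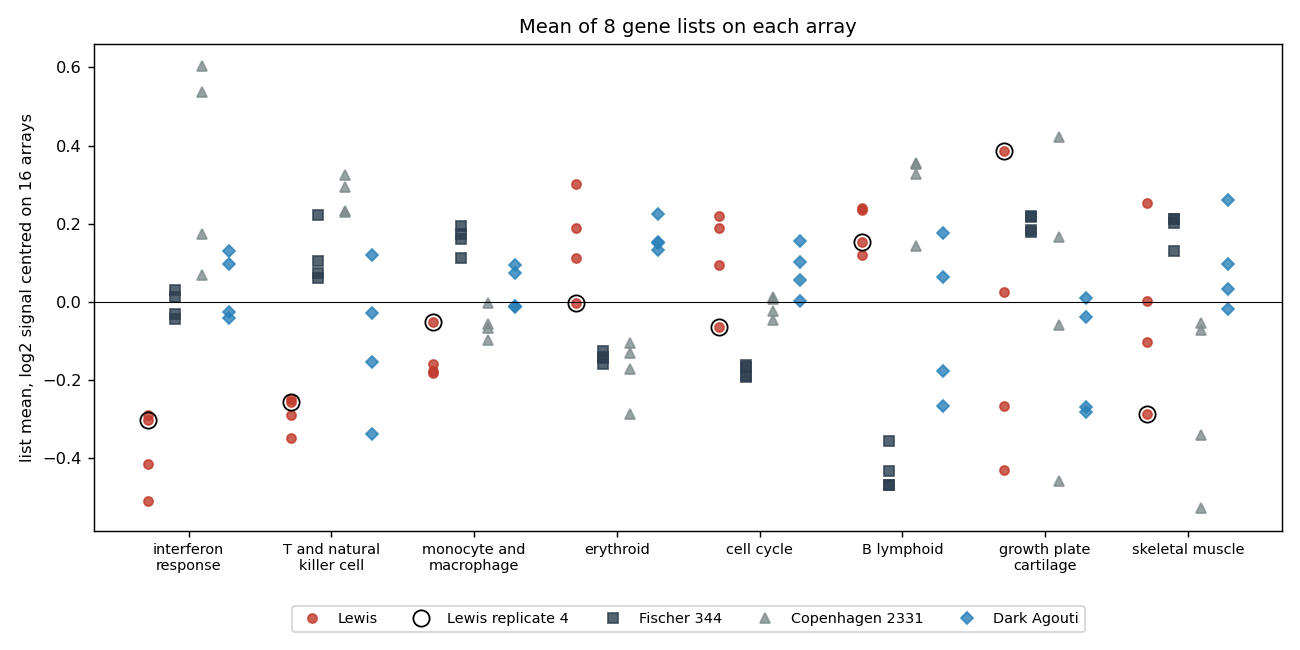
Mean log2 signal of the kept members of 8 gene lists on each array, every gene centred on its mean over the 16 arrays, with Lewis left of the other strains and Lewis replicate 4 ringed. All Lewis arrays lie below all others for the interferon list (-0.51 to -0.29 against -0.04 to 0.60), and in growth plate cartilage the 4 Lewis arrays run from -0.43 to 0.39.

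Genes of the skeleton itself were not set apart in Lewis. Of 17 osteoblast and bone matrix genes and 18 growth plate cartilage genes 0 were private and 0 were called by limma, with medians of -0.02 and -0.05. Over all genes 2.6% were private and 11.5% were called in either direction. Col1a1, Bglap, Ibsp and Alpl, which make or mineralise bone matrix, had differences of -0.02, 0.03, -0.07 and 0.06, and Col2a1, Acan and Col10a1, of cartilage, had -0.06, -0.09 and -0.03. The cartilage list mean ran over nearly the whole range of the study within Lewis, from -0.43 on replicate 1 to 0.39 on replicate 4, and muscle ran the other way, from 0.25 on replicate 1 to -0.29 on replicate 4. Without Lewis replicate 4, 2 cartilage genes were called lower. With this spread between Lewis arrays, a smaller shift of these lists was not detectable.

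For the small counts in the next lists, the shares over all genes were 5.43% called higher, 6.07% called lower and 1.08% private above. Osteoclast genes had 1 of 11 called higher, Mmp9, a collagenase (0.41, SE 0.069, limma adjusted p = 0.000274), and 1 lower, Nfatc1, the master regulator (-0.23, limma adjusted p = 0.0438). The call of Nfatc1 ended under 15 of the alternatives, where its adjusted p ran up to 0.181. Enpp1, which makes the mineralisation inhibitor pyrophosphate and stands in the osteocyte list, was lower at -0.79 (SE 0.081, limma adjusted p = 5.51e-07), with a Lewis difference of only -0.29 from Fischer 344. In the Wnt list 1 of 25 genes was called higher and 2 lower, and Lef1, a transcription factor of the pathway, was private above with 2170, 2142, 2167 and 2188 in Lewis against 1302 to 1895 (median 1615), but its other probe set gave -0.14 (limma adjusted p = 0.28). Of 36 genes of the BMP and TGF-beta pathway 0 were private and 2 were lower, Bmp4 at -0.38, a call lost without Lewis replicate 2 (-0.31, limma adjusted p = 0.0605), and Tgfbr3, a coreceptor, at -1.60. Tgfbr3 had 52.4, 48.0, 51.3 and 262 in Lewis against 144 to 292 (median 250), so a single Lewis array, replicate 4, kept it from being private.

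The glucocorticoid response list held no private gene. Beside the counts in this paragraph stand the shares over all genes, 5.43% called higher and 6.07% called lower. Of 22 kept members 3 were called higher, Cdkn1a (0.52), Glul (0.31) and Fkbp5 (0.24), and 1 lower, Sgk1 (-0.22), with a median of 0.01. The calls of Sgk1 ended under 7 alternatives and those of Fkbp5 under 2, with adjusted p up to 0.18 and 0.0713. The receptor Nr3c1 had -0.12 and the induced genes Tsc22d3 and Per1 had 0.01 and 0.13, none of which passed. Of 26 genes of glutathione and xenobiotic metabolism 5 were called higher and 1 lower, and Cbr1, a carbonyl reductase, was private at 0.19. Cbr1 was not private under median centring, and its call was lost without Lewis replicate 1 or replicate 2 (limma adjusted p = 0.0746 and 0.0589). Cyp4v3, a cytochrome P450, and Ephx2, an epoxide hydrolase, had the largest differences of that list, 1.51 and 1.42, and neither was private. Each had another strain at the Lewis level, Dark Agouti for Cyp4v3 (a Lewis difference of 0.05) and Fischer 344 for Ephx2 (-0.15). Among markers of fat, vessels and muscle, 3 of 18 adipocyte genes were called lower and 0 higher. Fasn, fatty acid synthase, had -0.38 (limma adjusted p = 0.000613) and Pnpla2, a fat lipase, had -0.29 (limma adjusted p = 0.0299), and Pnpla2 lost its call under 5 alternatives. Cfd, the adipocyte factor adipsin, was private below at -0.20, with 10110, 9954, 10020 and 9028 in Lewis against 10170 to 12740 (median 11080), and lost its call under median centring (-0.17, limma adjusted p = 0.0617) and without Lewis replicate 4 (-0.16, limma adjusted p = 0.0707). Of 17 endothelial genes 3 were called lower and 1 higher, with Pecam1, an adhesion protein of vessels, at -0.37 and Cldn5, a tight junction protein, at -0.34, and without Lewis replicate 2 none of the 3 was called. Of 35 skeletal muscle genes 1 was called, Myh4, a myosin heavy chain, at -0.28 (limma adjusted p = 0.0217), which was lost under 3 alternatives. Oxidative phosphorylation (37 kept genes) and cytosolic ribosomal proteins (16 kept genes) had 0 private members, with 1 call between them, Ndufb8 at -0.38, which was lost without Lewis replicate 2 or replicate 4 (limma adjusted p = 0.0905 and 0.0773).

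On chromosome 4, which carries the locus, 26 of 606 genes (4.29%) were private to Lewis, 13 above and 13 below, against 248 of 9906 genes (2.50%) on the other chromosomes. Chromosome 20, which holds the histocompatibility complex, had 17 of 308 (5.52%) and chromosome 13 had 15 of 314 (4.78%), and the lowest shares were 0.962% on chromosome 15 and 0.971% on chromosome 9. On chromosome 4 the count was 40 without Lewis replicate 4, and the count over all genes rose as well, from 274 to 468. Dnajb6, a chaperone that keeps proteins from clumping, had 7233, 6883, 7210 and 7635 in Lewis against 1998 to 4350 (median 2681), a difference of 1.29 (SE 0.061). Nom1, a nucleolar protein, had 1191, 1114, 1208 and 1192 against 509 to 754 (median 658), a difference of 0.89, and its other probe set gave 0.33 (limma adjusted p = 0.0554). The Lewis arrays agreed closely with each other in both genes and lay well clear of the rest.

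Inmt, a methyltransferase that acts on indole amines, had 96.4, 111, 116 and 139 in Lewis against 208 to 384 (median 279), a difference of -1.22 (SE 0.16), with all Lewis signals under the filter level. Pdia4, a protein folding enzyme of the endoplasmic reticulum, had 983, 1037, 1025 and 1162 against 1423 to 1695 (median 1565), a difference of -0.57. Pde6h, a phosphodiesterase subunit known from the retina, had 978, 1080, 1008 and 1043 against 468 to 818 (median 622), a difference of 0.71. Tmem176b, a membrane protein of dendritic cells, had -0.48, and its neighbour Tmem176a was private in the other direction at 0.34. Thumpd3-as1, an antisense transcript, had -0.50, and on these arrays it cannot be told whether its partner on the other strand contributed. Among genes picked after their values were seen, Aqp1, a water channel of red cells and vessels, had 17780, 16140, 17850 and 16230 against 12360 to 14750 (median 13610), and C1r, a complement protease, had 2506, 2650, 2458 and 2420 against 1684 to 2103 (median 1885), differences of 0.33 and 0.42. Usp18, Gimap4 and Igf2bp3, described above, are also on chromosome 4.

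On chromosome 20 the private genes went beyond the class I genes, and the following were picked after their values were seen. Gstt3, a glutathione transferase, had 1094, 1288, 1014 and 1077 in Lewis against 216 to 821 (median 331), a difference of 1.55 (SE 0.12) that was smallest against Dark Agouti (0.65). Mcu, the calcium channel of mitochondria, had 544, 471, 484 and 485 against 628 to 1021 (median 897), and Flot1, a membrane raft protein, had 1701, 1505, 1374 and 1532 against 2074 to 3289 (median 2701). Both were lower in Lewis than in each of the other strains, at -0.80 and -0.77. Lama4, a laminin chain of vessel walls, and Vsir, a checkpoint receptor of leukocytes, were private below as well, at -0.47 and -0.38.

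**Figure D5:**
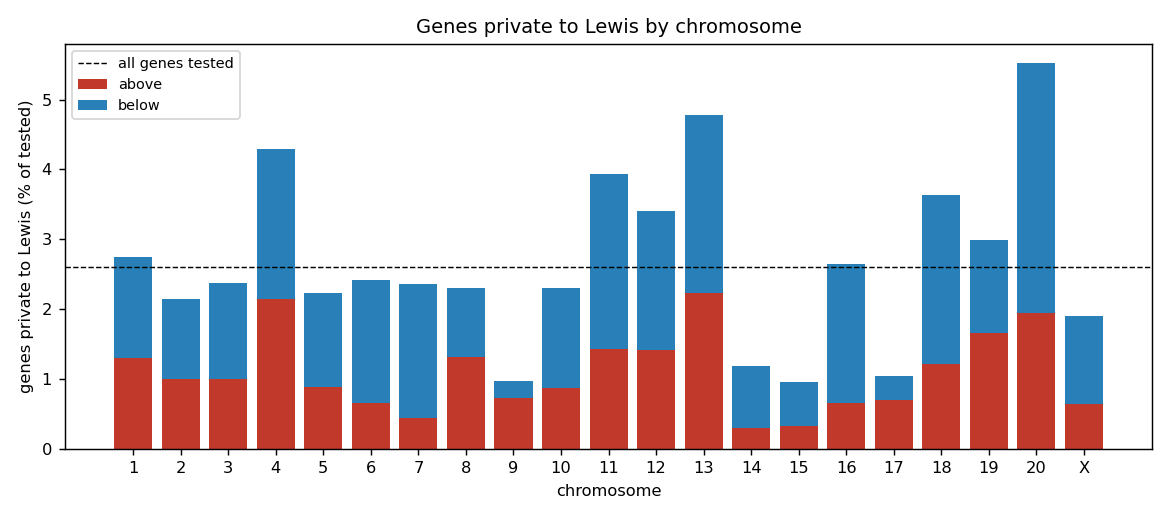
Share of tested genes private to Lewis on each chromosome (%), split into genes above (red) and below (blue), with the dashed line at 2.6%, the share over all 10548 genes. Chromosomes 20, 13 and 4 have the highest shares, at 5.52%, 4.78% and 4.29%.

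Some private genes lay side by side. Along the chromosomes 14 runs of neighbouring tested genes were all private, each 2 genes long, 28 of the 274 genes in all. In 7 runs both genes went in 1 direction. Over all genes 2.6% were private, and whether the number of runs differs from that of randomly placed genes was not tested. Ifi27 and Ifi27l2b, a related gene that its probe set may share, were both below, with Ifi27l2b at 969, 638, 949 and 704 in Lewis against 1349 to 3070 (median 1883). Eftud2, a splicing GTPase, and Gfap, a filament protein of astrocytes and other glia, were both below on chromosome 10, at -0.45 and -1.74, and Gfap had 315.7, 229.8, 325.2 and 258.8 against 552 to 1298 (median 1139). Abcb10, a mitochondrial transporter needed for haem synthesis, and Urb2, a nucleolar protein, were both above on chromosome 19, at 0.92 and 0.66. In Creg1 and Pou2f1 on chromosome 13, Slc14a1 and Pard6g on chromosome 18, and Mmadhc and Rnd3 on chromosome 3 the neighbours went opposite ways.

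A transcript that only Lewis makes can be lost to a filter on the mean over all arrays, so the 12417 dimmer probe sets were searched as well. Of these 40 were private above and 27 below. The genes named here come from the 24 above whose 4 Lewis signals all reached the filter level of 174, so bright Lewis signals are built in. Among those named Ctrb1, the pancreatic protease chymotrypsinogen B, was the furthest apart, with 735, 613, 734 and 631 in Lewis against 5.68 to 45.5 (median 15.9). Its difference was 5.33 (SE 0.49) when all probe sets are fitted. The 12 other arrays were at the bottom of the scale, where the size of a fold has little meaning. Lysmd4, a protein with a lysine motif domain, had 233, 466, 429 and 452 against 8.13 to 121 (median 29.7), and Cwc25, a splicing factor, had 585, 572, 574 and 624 against 32.4 to 157 (median 104). RT1-A3 and a second probe set of RT1-CE5, both class I genes, were also private above, with differences of 1.74 and 3.84. That probe set of RT1-CE5 had 944 to 1648 in Lewis, against 339 to 639 in Copenhagen 2331 and Dark Agouti and 1.27 to 5.45 in Fischer 344. Tmsb10-ps5, a thymosin pseudogene on chromosome 4, had 335, 377, 506 and 561 against 62.3 to 192 (median 140).

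At the edge of the rule, membership turned on differences far smaller than the spread between arrays. Just inside above were Cfap36, with 1659 to 1746 in Lewis and 1356 to 1658 elsewhere, and Ing4, with 1876 to 2109 and 1456 to 1875. Their differences were 0.18 and 0.25. Just outside above were Sh3glb1, whose lowest Lewis signal was 2392 against a highest other signal of 2393, and Papss1, at 3766 on both sides after rounding, with differences of 0.36 and 0.38. Just inside below were Ube2l6 and Lrch1, with differences of -0.45 and -0.69, and just outside were Mocos and Rbx1, with -0.56 and -0.16.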

How the data were processed

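Each array measured RNA of 1 proximal femur sample, from 5 µg of total RNA labelled as biotinylated cRNA, per the labels' protocols. The deposited values are MAS5 signal intensities, 1 per probe set on a linear scale, per the submitters' processing notes; every array has a 2% trimmed mean near 1000. Detection calls, the software version and the scaling target are not given in the sources used here. MAS5 subtracts mismatch probes, so dim signals are noisy, and 255 values under 1 were set to 1 before log2.

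Of 31099 probe sets, 57 controls were left out and the 18625 with a mean log2 at or above the 40th percentile (a signal of 174) were kept. GEO's platform annotation gave 1 symbol for 20826 probe sets, several for 436 and none for 9780, and 20758 matched a RefSeq gene. A gene was read by its brightest kept probe set. With limma 3.58.1 in R 4.3.3, 1 mean per strain was fitted to all 16 arrays (12 residual degrees of freedom, intensity trend), Lewis was set against the mean of the other strain means, and p-values were adjusted by Benjamini-Hochberg over all kept probe sets. The fit was also run on simulated arrays with Lewis shifts of known size. These had independent noise and no differences among the other strains, so the simulation does not cover such differences. The number of arrays limits the precision.

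Named genes were, among private and called genes with 1 symbol, the 14 above and 14 below with the widest gap and the 8 widest on chromosome 4, skipping symbols that only number a locus; in each list up to 4 called members with the largest differences and up to 4 private ones; the 6 widest among dim probe sets; the 6 longest runs of neighbours; and the 2 genes on each side of the rule's edge. The dim probe sets named were private above, with all 4 Lewis signals at or above the filter level of 174. Other list members are named for what they mark, and any other gene is said to be picked after its values were seen. The members and the gene lists were chosen with earlier results of these data known. Promoters came from RefSeq (GRCr8). The replicate numbers of the strains did not pair the arrays: the correlation of deviations of same-numbered arrays was -0.173 to 0.0875 over 24 pairs. Alternatives covered normalization, filter, pseudocount, threshold, variance moderation, weighted arrays, a block for the replicate number, the probe set of a gene, and leaving out each array.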

Additional observations from a re-analysis of the deposited data

Results flagged for a closer look

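A single Lewis array stood far from the other 3 in 6 of 145 groups of 4 Lewis values, by Dixon's 95% criterion; chance flags about 1 in 20 groups. Ythdf2 had 7506 on replicate 4, against 6449 to 6488 on the other Lewis arrays. Rnd3 had 1839 on replicate 4, against 1408 to 1439. In both genes the value lay further from the other strains. Cfd had 9028 on replicate 4, against 9954 to 10110. Tgfbr3 had 261.8 on replicate 4, against 48.0 to 52.4, and that value lay inside the range of the other strains. Lysmd4 had 232.9 on replicate 1, against 429 to 466. The mean of the osteoblast and bone matrix list was 0.18 (0.183) on replicate 4, against -0.08 to -0.04 on the others.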

How the results depend on the processing

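Without Lewis replicate 4, 404 probe sets were private above, 365 of them also called, 40 private genes lay on chromosome 4, and 468 genes were private in all. Fewer arrays make the rule easier to meet. Leaving out 1 array at a time gave 241 to 404 private above and 290 to 413 below, 231 to 365 private and called above and 277 to 381 below, 284 to 468 private genes and 26 to 40 on chromosome 4. The limma counts were 775 to 1079 called higher and 874 to 1118 lower, and 157 to 212 and 215 to 257 against each strain. A gap of at least 0.25 log2 left 71 above and 84 below. With the filter at the 60th percentile 30.2% of the other probe sets of private genes were private the same way. Median centring gave 1222 called higher and 909 lower, with 278 private above and 229 below, 450 of the 513 shared, and quantile normalization 1077 and 1064, 254 and 270, with 485 shared. With the replicate number as a block 1009 were called higher and 1072 lower. The replicate numbers paired no arrays, with 0 of 24 correlations over 0.1 and 4 of 16 arrays correlating best with their own number. Of the values of named genes under alternatives 2762 kept their side of the threshold and 129, in 23 genes, lost their call. The interferon list without Copenhagen 2331 replicates 2 and 4, an alternative chosen after seeing the data, kept 15 calls. MAS5 signals near 174 and below, which 30 private probe sets had in Lewis, limit what their folds mean.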

Other observations

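The gene groups in this paragraph were put together after the values had been seen. Of the 4 chains of the interferon receptors, Ifnar2 and Ifngr2 were private below in Lewis by their brightest probe set, and their other probe sets did not bear this out. Ifnar2, the signalling chain of the type I receptor, had 1356, 1175, 1133 and 1203 in Lewis against 1535 to 1910 (median 1690), a difference of -0.48 (SE 0.056). Ifngr2, of the type II receptor, had 1298, 1236, 1172 and 1400 against 1415 to 1940 (median 1537), a difference of -0.30 (SE 0.063). The other kept probe set of Ifnar2 went the opposite way, at 0.38, and that of Ifngr2 had -0.15 and was not private. Ifnar1 and Ifngr1 had 0.01 and -0.01.

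Of 9 kept proteasome beta subunits 3 were private below, the immunoproteasome subunits Psmb9 and Psmb8 and Psmb3, a structural subunit, which had 7435, 7086, 7422 and 7263 in Lewis against 7825 to 9283 (median 8412), a difference of -0.22. Psmb10, also an immunoproteasome subunit, had -0.15 (limma adjusted p = 0.097) and was neither private nor called. The constitutive catalytic subunits Psmb5 and Psmb7 had 0.04 and -0.01. Of 73 kept mitochondrial ribosomal protein genes 0 were private above and 5 below, Mrpl50, Mrpl48, Mrpl43, Mrpl46 and Mrpl18, at -0.50, -0.41, -0.25, -0.24 and -0.14, while 4 were called higher and 6 lower by limma and the median over the group was -0.04. Over all genes 1.08% were private above and 1.52% below, and 5.43% were called higher and 6.07% lower. Of 28 kept Mediator subunits, parts of the bridge between transcription factors and RNA polymerase II, Med1 and Med23 were private below at -0.40 and -0.39 and Med11 above at 0.20. Med11 was not called (limma adjusted p = 0.0791). The other probe set of Med1 had -0.12 and was not private. Med23 is the neighbour of Arg1 on chromosome 1, which was private above at 1.27.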
